A study of Homo sapiens with 15 samples.

Results

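The change over time in the response of A549 cells to 40 nM geldanamycin is described here as a difference of differences: the log2 difference between 40 nM and vehicle at 48 h minus the same difference at 24 h. It uses 12 of the 15 arrays of the study, 3 in each of 4 groups, and covers 19775 genes, each read from its brightest probe set that carries 1 gene symbol. A549 is an established human lung carcinoma line of epithelial origin. Cells were given 24 h to attach and then received geldanamycin at 40 nM, the IC50 stated by the submitters, or the vehicle, DMSO at a final 0.4%. The groups are 40 nM for 48 h, vehicle for 48 h, 40 nM for 24 h and vehicle for 24 h. The remaining 3 arrays, 10 nM for 48 h, entered the fit only through the shared estimate of the spread, and stand apart on control probe sets. They also counted in the mean over 15 arrays by which each gene's brightest probe set was chosen. According to the labels, cells were confluent when collected, and nothing there ties the 3 arrays of a group to separate cultures, so the spread behind the p-values may be technical. In RNA from a whole culture, fewer cells of a kind and less RNA per cell cannot be told apart.

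Geldanamycin occupies the ATP pocket of the chaperone HSP90, which folds and stabilises many kinases, receptors and transcription factors. When HSP90 is blocked, clients are degraded and the factor HSF1, otherwise held by chaperones, switches on genes for heat shock proteins. Geldanamycin also carries a quinone, a group that enters redox cycles, and A549 cells have a mutation in KEAP1 that keeps the antioxidant factor NRF2 active. NF-kB, a family of factors freed by degradation of their inhibitors, drives chemokine, cytokine and survival genes in airway epithelium.

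All values are log2 levels from RMA, a method that subtracts background, equalises the distributions of arrays and summarises the probes of each set. The mean over all probe sets was 5.52 on every array of both 48 h groups and 5.13 or 5.14 on every array of both 24 h groups. The arrays of each time thus look as if they were normalized apart from those of the other time. A step shared by the arrays of 1 time drops out of a difference of differences, whereas a level at 48 h set beside a level at 24 h still holds it. The 3' minus 5' difference of the ACTB control probe sets, a sign of RNA integrity, was 0.44 ± 0.03 at 40 nM for 48 h, 0.35 ± 0.06 in vehicle for 48 h, 0.14 ± 0.05 at 40 nM for 24 h and 0.13 ± 0.0049 in vehicle for 24 h (SD, n = 3). It was 2.65 to 2.70 on the 3 arrays of 10 nM for 48 h and 0.08 to 0.47 on the other 12, and the mean level of the poly-A spikes was 3.28 to 3.34 and 5.43 to 6.15. With these 3 arrays left out of the fit and the same probe sets kept, 3152 genes passed the test of the difference of effects given next, in place of 3420. The bacterial poly-A spikes, whose amounts no cell sets, had a median difference of differences of -0.14 over 27 probe sets, with a range of -0.34 to 0.06. Of 10 genes listed as epithelial markers of the line, 9 were above the median level of all genes. AKR1B10 and AKR1C1 among them are also NRF2 targets, so this count does not by itself show epithelial origin.

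The response to 40 nM changed between the times for 3420 of the 19775 genes (limma, Benjamini-Hochberg adjusted p below 0.05), which is 17.3%. In 1816 genes (9.18%) the effect was higher at 48 h than at 24 h, and in 1604 (8.11%) it was lower, with 222 and 143 of them differing at least 2-fold. Higher here means a more positive effect, whether a rise became larger or a fall became smaller. At 48 h, 21.3% of genes passed against vehicle, 10.5% higher and 10.7% lower. At 24 h, 31.5% passed, 14.8% higher and 16.7% lower. The spread of the effects over all genes was smaller at 48 h, with an SD of 0.29, than at 24 h, with 0.38. Across genes, which are not independent, the effects of the separate sets of arrays at the 2 times had a Pearson r of 0.53.

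The most common pattern was an effect that was present at 24 h and no longer passed at 48 h, in 1683 of the 3420 genes. Another 559 genes passed in the same direction at both times with a smaller effect at 48 h, and 157 with a larger one. A further 610 genes passed at 48 h and not at 24 h, 306 passed at both times in opposite directions, and 105 passed at neither time alone. Of the 2927 genes called higher at 24 h, 1200 (41.0%) had a significantly less positive or an opposite effect at 48 h, and 112 a more positive one. Of the 3295 called lower at 24 h, 1348 (40.9%) had a significantly less negative or opposite effect, and 45 a more negative one. These shares describe genes picked by the same 24 h arrays that enter the difference, so an overestimate at 24 h counts towards them.

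**Figure D1:**
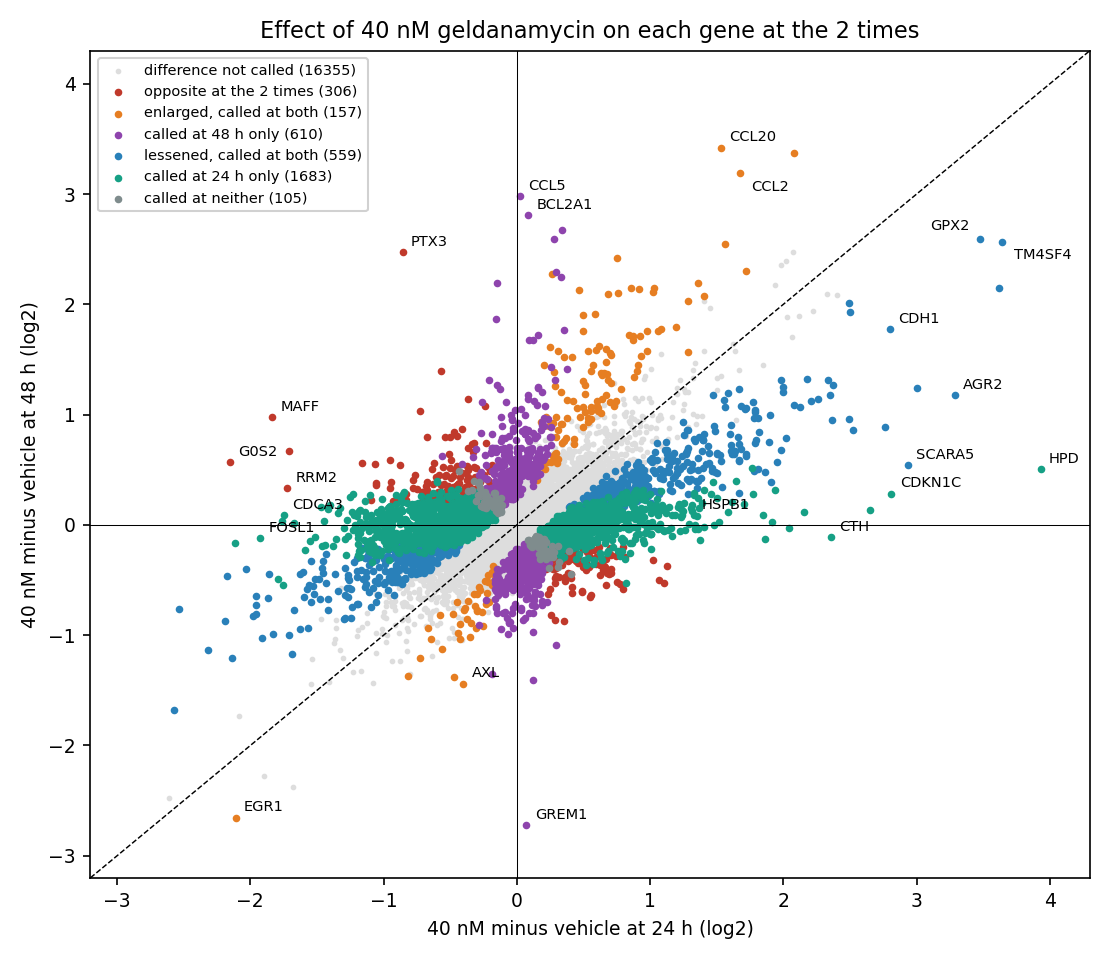
Each point is 1 of 19775 genes, with its log2 difference between 40 nM and vehicle at 24 h on the horizontal axis and at 48 h on the vertical axis. The dashed line marks equal effects, and the colours mark the 6 patterns among the 3420 genes whose difference passed limma's test. The 1683 genes called at 24 h only lie along the horizontal axis, while PTX3, CCL5 and BCL2A1 lie far above the dashed line and HPD, CDKN1C, CTH and GREM1 far below it.

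Cell cycle genes were the most uniform group. Every measured gene of the G1/S and DNA replication list, 35 of 35, and of the G2/M and mitosis list, 40 of 40, had a higher effect at 48 h than at 24 h, where 9.18% of all genes did. With probe sets ending in _x_at or _s_at left out, which can also bind other transcripts, 26 of 28 and 26 of 32 did. The median differences of effects were 0.75 and 0.96, against -0.0039 over all genes. At 48 h the median effect was 0.06 for G1/S, with 8 genes higher and 5 lower than vehicle, and 0.05 for G2/M, with 8 higher and 3 lower. At 24 h it was -0.78 for G1/S, with 0 higher and 34 lower, and -0.93 for G2/M, with 0 higher and 40 lower. Effects at 48 h lay within 0.3 of 0 for 29 of the 35 and 34 of the 40 genes. The median difference of effects of these lists ranged from 0.69 to 0.78 and from 0.91 to 0.98 over 24 other ways of processing the arrays.

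RRM2, the small subunit of the ribonucleotide reductase that supplies DNA precursors, had levels of 11.88, 11.92 and 11.87 at 40 nM for 48 h, against 11.55, 11.57 and 11.56 in vehicle for 48 h. At 24 h its levels were 9.64, 9.61 and 9.64 at 40 nM, against 11.39, 11.39 and 11.30 in vehicle. The 40 nM arrays were therefore slightly above vehicle at 48 h and far below it at 24 h, with no overlap at either time. Its effect was 0.33 ± 0.05 at 48 h and -1.73 ± 0.05 at 24 h, a difference of 2.06 ± 0.07 (SE; limma adjusted p = 1.39e-09). CCNE2, a cyclin that drives entry into S phase, showed the same order, with an effect of 0.56 ± 0.10 at 48 h and -1.07 ± 0.10 at 24 h (difference 1.62 ± 0.14, limma adjusted p = 3.87e-06). The repressor E2F8, the replication factor MCM10 and the checkpoint mediator CLSPN had effects of 0.25 ± 0.08, -0.01 ± 0.09 and -0.07 ± 0.10 at 48 h, none of which passed, against falls at 24 h with effects of -1.25 ± 0.08, -1.14 ± 0.09 and -1.17 ± 0.10.

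CDCA3, which promotes entry into mitosis, had levels of 9.76, 9.69 and 9.81 at 40 nM for 48 h, against 9.64, 9.65 and 9.69 in vehicle for 48 h. Its levels at 24 h were 7.71, 7.78 and 7.73 at 40 nM, against 9.41, 9.56 and 9.49 in vehicle. The groups overlapped at 48 h, all 3 treated arrays at 24 h were below every other array, and the difference of effects was 1.84 ± 0.08 (limma adjusted p = 2.54e-08). AURKB, the kinase of the chromosomal passenger complex, had an effect of -0.15 ± 0.06 at 48 h (adjusted p = 0.11) and -1.55 ± 0.06 at 24 h in limma, a difference of 1.41 ± 0.08. Its partner CDCA8 differed by 1.20 ± 0.10, the spindle protein DLGAP5 by 1.32 ± 0.11 and the kinesin KIF23, which works in cytokinesis, by 1.31 ± 0.10. A second probe set of KIF23 gave a difference of 0.09 (limma adjusted p = 0.896 with _x_at and _s_at probe sets left out), and that of AURKB 0.42. In the list of DNA repair in S phase, 9 of 11 genes had a higher effect at 48 h and 0 a lower one, with a median of 0.75. Among them were RAD51AP1 (difference 1.11 ± 0.09), the exonuclease EXO1 (0.94 ± 0.10) and the helicase BLM (0.86 ± 0.11).

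The promoters of DLGAP5 and KIF23 are shown because many G2/M genes share a short element, the cell cycle genes homology region or CHR, and moved together here. Capitals mark TTTGAA, the letters searched on both strands in the 250 bases before the transcription start. The stretches are 100 bases 5' to 3' on the gene's strand, from RefSeq on GRCh38.p14: chr14:55191640-55191739 on the minus strand and chr15:69414249-69414348 on the plus strand.
DLGAP5: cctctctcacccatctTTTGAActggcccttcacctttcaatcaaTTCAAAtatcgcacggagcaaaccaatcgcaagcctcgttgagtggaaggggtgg
KIF23: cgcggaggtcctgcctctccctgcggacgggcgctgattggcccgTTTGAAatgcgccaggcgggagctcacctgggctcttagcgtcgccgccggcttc
DLGAP5 holds the element in both orientations and KIF23 once. TTTGAA occurred in 16 of the 32 G2/M promoters in the table (50%), in 1 of 31 G1/S promoters (3.23%) and in 13.6% of all 27305 promoters. The letters CCAAT occurred in 25 of 32 G2/M promoters (78.1%), in 18 of 31 G1/S promoters (58.1%) and in 33% of all. A match describes the letters and does not show that a factor binds there.

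Inhibitors of cyclin-dependent kinases did not move as 1 group: of 6 measured, 3 had a higher effect at 48 h, 2 a lower one and 1 did not pass. The 3 include CDKN3, which encodes a phosphatase. Without _x_at and _s_at probe sets, 1 of 5 had a higher effect and 2 a lower one. CDKN1C, which encodes the inhibitor p57, had levels of 4.86, 5.02 and 5.42 at 40 nM for 48 h, against 4.89, 4.71 and 4.84 in vehicle for 48 h. At 24 h its levels were 7.65, 7.88 and 7.70 at 40 nM, against 4.86, 5.08 and 4.86 in vehicle. Only the 40 nM arrays at 24 h were high, and the other 9 arrays lay between 4.71 and 5.42. The effect was 0.28 ± 0.13 at 48 h and 2.81 ± 0.13 at 24 h, a difference of -2.53 ± 0.18 (limma adjusted p = 8.34e-07), although its 4 other probe sets ranged from -2.75 to 0.10. CDKN1A, which encodes the p53-induced inhibitor p21, ran the other way, with an effect of 1.38 ± 0.06 at 48 h and 0.65 ± 0.06 at 24 h (difference 0.73 ± 0.08, limma adjusted p = 2.35e-05). CDKN1B, encoding p27, was lower than vehicle by -0.31 on the log2 scale at 48 h and had a difference of -0.31 ± 0.08. Of 11 measured replication-dependent histone genes, 8 were higher than vehicle at each time. Their median level was 4.43 to 5.66 in the 4 groups, under the median of gene values, 6.03. Which forms of these transcripts the probe sets read was not tested. A higher effect at 48 h than at 24 h was found for 2 (18.2% called, against 17.3% of all genes), H2BC12 by 0.47 ± 0.10 and H2BC6 by 0.50 ± 0.16. The call of H2BC6 (limma adjusted p = 0.0408) was lost in 9 of the 12 fits that left out 1 array.

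Of 23 p53 targets, 10 had a higher effect at 48 h, 3 a lower one and 10 did not pass, with a median of 0.35. Without _x_at and _s_at probe sets 3 of 15 had a higher effect and 2 a lower one, with a median of 0.20. GADD45A, a stress gene that slows the cycle, had levels of 10.39, 10.51 and 10.496 at 40 nM for 48 h, against 9.86, 9.78 and 9.82 in vehicle for 48 h, and 9.15, 9.11 and 9.25 at 40 nM for 24 h, against 9.80, 9.67 and 9.57 in vehicle for 24 h. It was above vehicle at 48 h and below vehicle at 24 h on all arrays, a difference of 1.16 ± 0.10 (limma adjusted p = 2.39e-06). The death receptor TNFRSF10B had an effect of 0.77 ± 0.08 at 48 h and -0.01 ± 0.08 at 24 h, and PMAIP1, which encodes the BH3-only protein NOXA, 0.55 ± 0.06 and -0.18 ± 0.06. The stress cytokine GDF15 had a difference of 1.24 ± 0.10, but this was 0.04 (limma adjusted p = 0.939) when probe sets ending in _x_at or _s_at, which can match several transcripts, were left out.

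**Figure D2:**
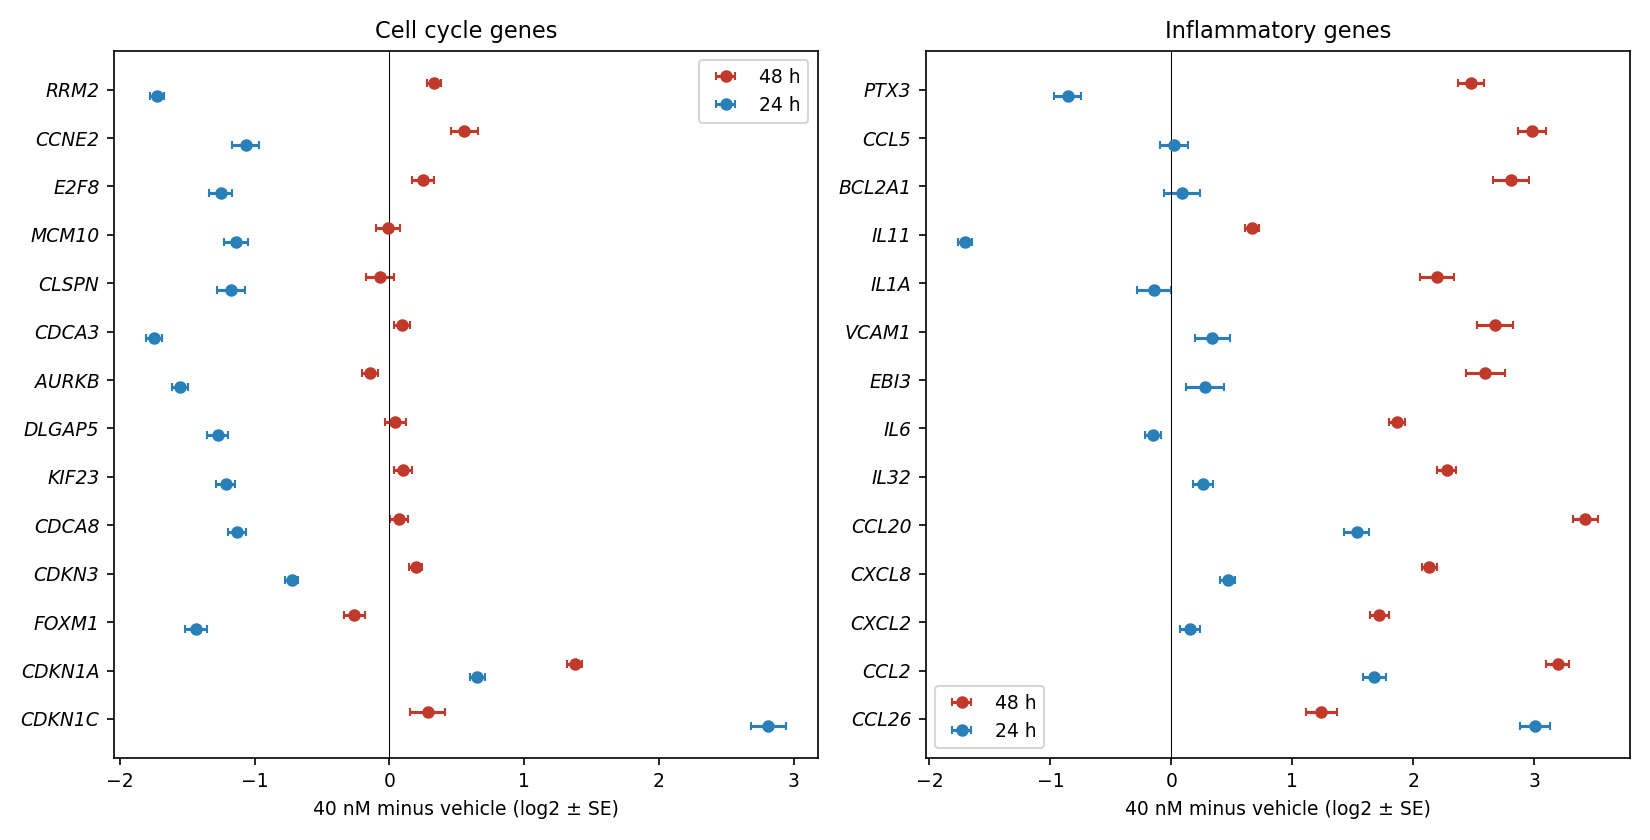
Points are the log2 differences between 40 nM and vehicle at 48 h (red) and 24 h (blue) for 14 cell cycle genes and 14 inflammatory genes, and bars are limma standard errors with 3 arrays per group. Among the cell cycle genes the 24 h points lie to the left of the 48 h points in all but CDKN1C, and among the inflammatory genes in all but CCL26.

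Inflammatory genes had larger effects at 48 h than at 24 h, and several had no detectable effect at 24 h. Of 19 cytokines and mediators, 12 had a higher effect at 48 h, 1 a lower one and 6 did not pass, with a median difference of 0.67. Their median effect was 1.08 at 48 h, with 16 higher and 0 lower than vehicle, and 0.12 at 24 h, with 7 higher and 3 lower. Of 18 chemokines, 8 had a higher effect at 48 h and 1 a lower one. Their median effects were 0.92 at 48 h, with 11 higher and 0 lower, and 0.22 at 24 h, with 9 higher and 0 lower. The median difference over chemokines was 0.24 and ranged from 0.15 to 1.09 over 24 other ways of processing the arrays, so its size depended on them.

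CCL5, a chemokine that draws T cells and monocytes, had levels of 8.27, 8.28 and 8.35 at 40 nM for 48 h, against 5.43, 5.28 and 5.24 in vehicle for 48 h. At 24 h its levels were 4.61, 4.97 and 4.52 at 40 nM, against 4.43, 4.70 and 4.90 in vehicle. The treated arrays at 48 h stood alone, and at 24 h the groups overlapped. The effect was 2.98 ± 0.12 at 48 h and 0.02 ± 0.12 at 24 h, a difference of 2.96 ± 0.17 (limma adjusted p = 1.66e-07). CCL20, the ligand of CCR6, had levels of 11.03, 10.97 and 11.07 at 40 nM for 48 h, against 7.68, 7.53 and 7.59 in vehicle for 48 h, and 5.36, 5.59 and 5.82 at 40 nM for 24 h, against 3.97, 4.21 and 3.99 in vehicle for 24 h. Treated arrays were higher at both times and by more at 48 h, with effects of 3.42 ± 0.10 and 1.53 ± 0.10 (difference 1.89 ± 0.15, limma adjusted p = 1.54e-06). CXCL8, which encodes the neutrophil attractant IL-8, differed by 1.67 ± 0.09, with effects of 2.13 at 48 h and 0.46 at 24 h. CCL2, a monocyte attractant, differed by 1.52 ± 0.13, with effects of 3.19 at 48 h and 1.68 at 24 h. CXCL2 had 1.72 at 48 h and 0.16 at 24 h, a difference of 1.56 ± 0.12.

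CCL26, the eosinophil attractant eotaxin-3, was the single chemokine with a lower effect at 48 h. Its levels were 7.72, 8.08 and 7.93 at 40 nM for 48 h, against 6.59, 6.72 and 6.72 in vehicle for 48 h, and 9.87, 10.01 and 9.93 at 40 nM for 24 h, against 7.26, 6.82 and 6.71 in vehicle for 24 h. Treated arrays were higher at both times without overlap, by 1.24 ± 0.13 at 48 h and 3.01 ± 0.13 at 24 h, a difference of -1.77 ± 0.18 (limma adjusted p = 1.26e-05).

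Promoter stretches of CCL20 and CXCL8 are shown because these chemokine genes rose further with time and carry a match to the binding letters of NF-kB. Capitals mark GGNNTTTCC, searched on both strands in the 250 bases before the start, where N is any base. Both stretches are 100 bases on the plus strand of GRCh38.p14 from RefSeq, at chr2:227813718-227813817 and chr4:73740433-73740532.
CCL20: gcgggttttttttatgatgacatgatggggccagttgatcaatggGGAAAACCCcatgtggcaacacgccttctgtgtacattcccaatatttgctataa
CXCL8: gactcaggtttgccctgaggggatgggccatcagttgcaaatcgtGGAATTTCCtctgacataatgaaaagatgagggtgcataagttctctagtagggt
The CCL20 match reads on the opposite strand. These letters occurred in 9 of 14 chemokine promoters in the table (64.3%), in 5 of 14 promoters of NF-kB subunit and feedback genes (35.7%), in 3 of 16 cytokine promoters (18.8%), in 1 of 32 G2/M promoters (3.12%) and in 5.48% of all 27305. Among all genes with a higher effect at 48 h they occurred in 7.32% of 1490 promoters, and among those with a lower one in 4.59% of 1328.

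PTX3, a soluble pattern recognition protein of innate immunity, had the largest positive difference of all genes. Its levels were 8.54, 8.63 and 8.53 at 40 nM for 48 h, against 5.98, 6.03 and 6.26 in vehicle for 48 h. At 24 h they were 6.76, 6.64 and 6.71 at 40 nM, against 7.78, 7.62 and 7.27 in vehicle. Treated arrays were above vehicle at 48 h and below it at 24 h, with effects of 2.48 ± 0.11 and -0.86 ± 0.11, a difference of 3.33 ± 0.16 (limma adjusted p = 3.05e-08). IL11, a cytokine of the IL-6 family, also turned: its levels were 10.70, 10.69 and 10.76 at 40 nM for 48 h, against 10.10, 10.04 and 10.01 in vehicle for 48 h, and 9.47, 9.48 and 9.34 at 40 nM for 24 h, against 11.10, 11.17 and 11.15 in vehicle for 24 h. Its effects were 0.67 ± 0.06 at 48 h and -1.71 ± 0.06 at 24 h, a difference of 2.37 ± 0.08 (limma adjusted p = 1.39e-09).

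IL6, the main acute-phase cytokine, had levels of 10.14, 10.18 and 10.25 at 40 nM for 48 h, against 8.42, 8.29 and 8.27 in vehicle for 48 h, and 8.32, 8.41 and 8.42 at 40 nM for 24 h, against 8.63, 8.53 and 8.45 in vehicle for 24 h. The groups did not overlap at either time, but the effect of -0.15 ± 0.07 at 24 h did not pass (limma adjusted p = 0.108), whereas that of 1.86 ± 0.07 at 48 h did. EBI3, a subunit of IL-27 and IL-35, had effects of 2.60 ± 0.16 at 48 h and 0.28 ± 0.16 at 24 h, and the pro-inflammatory IL32 of 2.27 ± 0.08 and 0.26 ± 0.08. IL1A, which encodes the alarmin IL-1 alpha, had effects of 2.19 ± 0.14 at 48 h and -0.15 ± 0.14 at 24 h on its brightest probe set, a difference of 2.34 ± 0.20. Its second probe set gave 0.17 (limma adjusted p = 0.552 with _x_at and _s_at probe sets left out).

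NF-kB subunits and feedback genes followed the same order, with 10 of 16 higher at 48 h, 1 lower (0 in 7 of the 12 fits that left out 1 array) and a median difference of 0.50. Their median effect was 0.63 at 48 h, with 13 higher and 0 lower than vehicle, and 0.18 at 24 h, with 8 higher and 1 lower. BCL2A1, an anti-apoptotic member of the BCL2 family and an NF-kB target, had levels of 9.63, 9.65 and 9.63 at 40 nM for 48 h, against 6.84, 7.05 and 6.58 in vehicle for 48 h. At 24 h it had 5.78, 5.88 and 6.23 at 40 nM, against 6.15, 5.56 and 5.92 in vehicle. The groups overlapped at 24 h and were far apart at 48 h, and the difference of effects was 2.72 ± 0.21 (limma adjusted p = 1.74e-06). The subunit RELB had effects of 1.58 ± 0.09 at 48 h and 0.31 ± 0.09 at 24 h, the ubiquitin-editing inhibitor TNFAIP3 (A20) of 2.14 ± 0.09 and 0.92 ± 0.09, and the inhibitor NFKBIE of 1.53 ± 0.07 and 0.42 ± 0.07. TNIP1, the partner of A20, differed by 1.11 ± 0.09, but its other probe set gave -0.28. The co-stimulatory receptor TNFRSF9 (4-1BB) had effects of 1.40 ± 0.08 at 48 h and -0.57 ± 0.08 at 24 h, a difference of 1.97 ± 0.12.

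Of 17 adhesion molecules and innate receptors, 6 had a higher effect at 48 h and 0 a lower one. VCAM1, which binds leukocyte integrins, had levels of 7.07, 7.15 and 6.94 at 40 nM for 48 h, against 4.35, 4.45 and 4.33 in vehicle for 48 h. The 24 h levels were 6.81, 6.57 and 6.91 at 40 nM, against 6.85, 6.23 and 6.18 in vehicle. At 48 h the vehicle arrays stood apart as the lowest of the 12, and the groups overlapped at 24 h. The effect was 2.67 ± 0.15 at 48 h and 0.34 ± 0.15 at 24 h, a difference of 2.33 ± 0.21 (limma adjusted p = 4.80e-06). ICAM1, another integrin ligand, had effects of 1.76 ± 0.14 at 48 h and 0.36 ± 0.14 at 24 h, and the kinase IRAK2 of the IL-1 receptor pathway of 1.91 ± 0.10 and 0.50 ± 0.10, though the 2 other probe sets of IRAK2 gave differences of -0.12 and -0.06.

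Genes of class I antigen presentation and the immunoproteasome also had more positive effects at 48 h, 8 of 15 with 0 lower and a median difference of 0.30, and 4 of 11 without _x_at and _s_at probe sets. PSMB9, an immunoproteasome subunit, had an effect of 1.08 ± 0.06 at 48 h and -0.24 ± 0.06 at 24 h, a difference of 1.31 ± 0.08 (limma adjusted p = 3.89e-07). PSMB10 had 0.67 ± 0.06 at 48 h and 0.001 ± 0.06 at 24 h, and the peptide transporter TAP1 0.91 ± 0.08 and 0.19 ± 0.08. Interferon-stimulated genes were split: 11 of 27 had a higher effect at 48 h, 4 a lower one and 12 did not pass. The 4 became 2 when replicate 3 of 40 nM at 24 h, replicate 1 or 3 of vehicle at 48 h or replicate 3 of 40 nM at 48 h was left out, and 1 without replicate 1 of 40 nM at 48 h. MX1, an antiviral GTPase, had effects of 1.31 ± 0.16 at 48 h and 0.29 ± 0.16 at 24 h, and IFI35 of 0.98 ± 0.08 and -0.12 ± 0.08. The exonuclease ISG20 went the other way, with 0.68 ± 0.10 at 48 h and 1.98 ± 0.10 at 24 h.

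Of 9 markers of leukocytes, 2 passed and 7 did not. That is 22.2% called, near the 17.3% of all genes. Their summed linear level over 9 genes was 230 to 262 at 40 nM for 48 h and 173 to 189 in vehicle for 48 h, and 117 to 135 at 40 nM for 24 h and 113 to 136 in vehicle for 24 h. None of the 9 was above the median level of all genes. ITGAM and CD14 had a higher effect at 48 h (2 of 9, 0 lower), by 1.02 ± 0.13 and 0.77 ± 0.14, and the second probe set of ITGAM gave 0.08 (limma adjusted p = 0.908). The pan-leukocyte PTPRC, the T cell gene CD3E and the myeloid LYZ had differences of 0.13 ± 0.13, 0.06 ± 0.19 and -0.01 ± 0.15, none of which passed. The part of these transcripts in the inflammatory result was not tested.

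**Figure D3:**
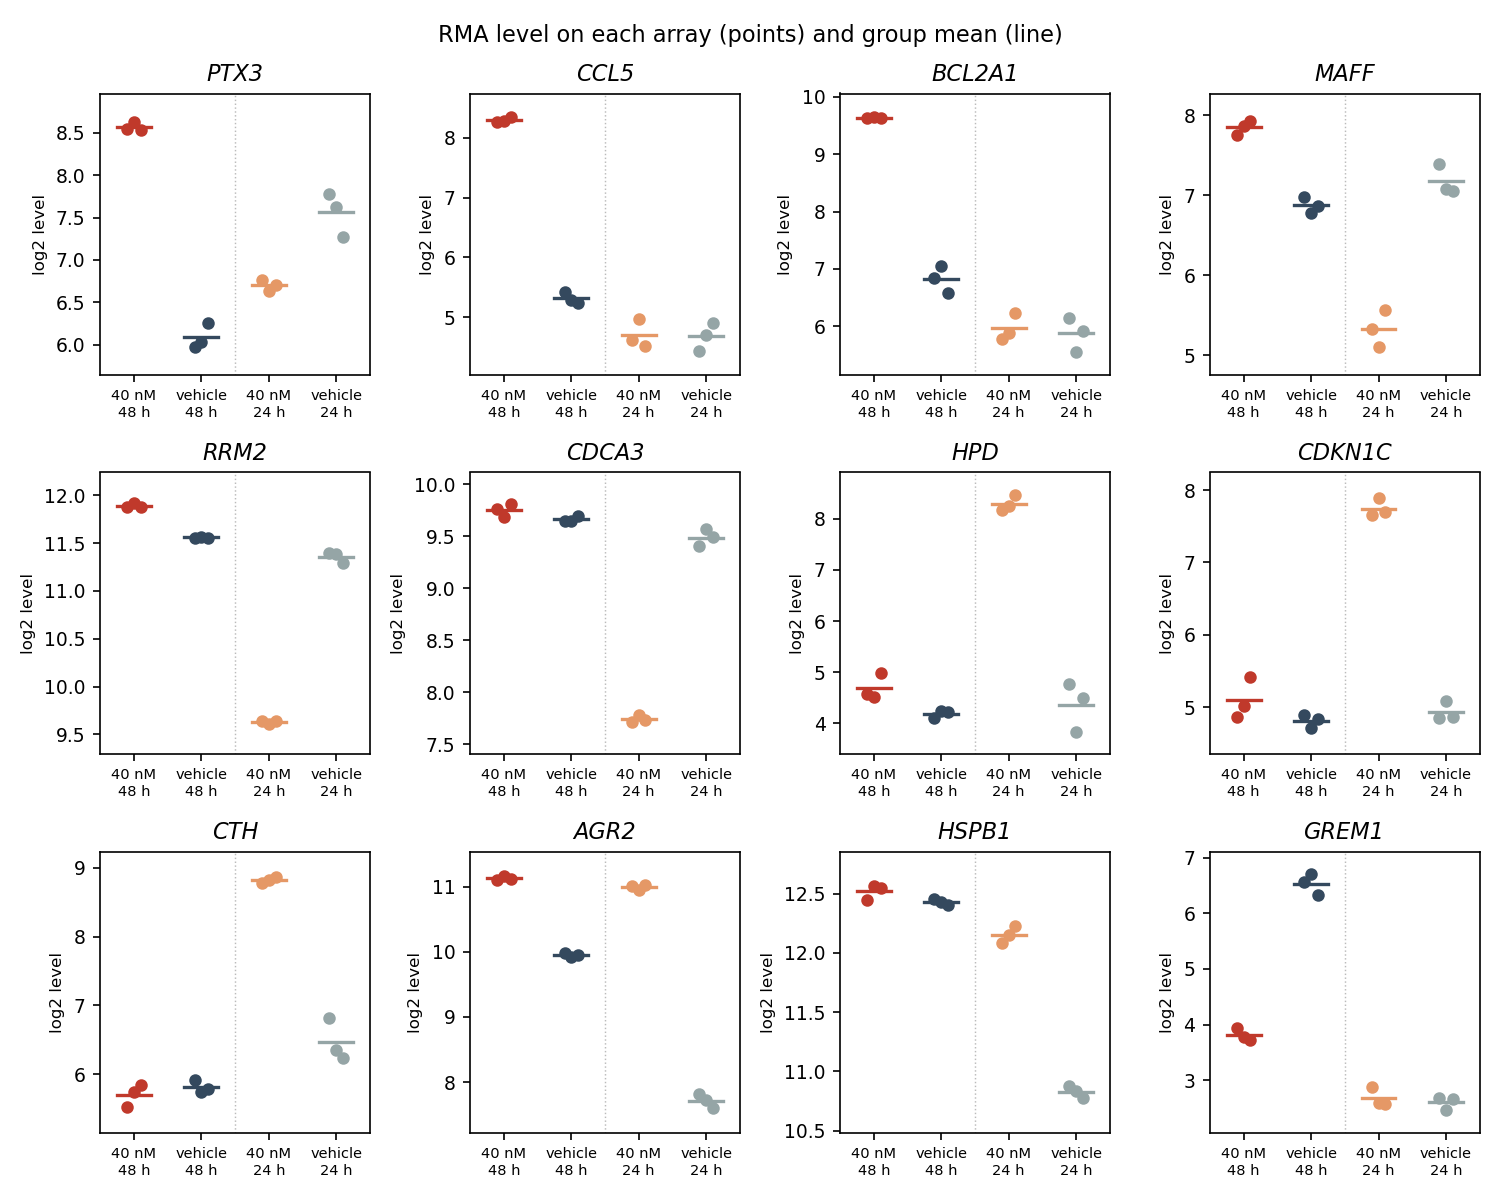
Each panel shows the log2 RMA level of 1 gene on the 12 arrays as points, with the group mean as a line, in the order 40 nM 48 h, vehicle 48 h, 40 nM 24 h and vehicle 24 h. The dotted line parts the times, whose levels are on separate scales of normalization. CCL5 and BCL2A1 were high only at 40 nM for 48 h, HPD, CDKN1C and CTH only at 40 nM for 24 h, and RRM2 and CDCA3 were low only at 40 nM for 24 h.

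Most changes among transcription factors of the AP-1 and small MAF group were to a higher effect at 48 h. Of 11 such genes, 6 had a higher effect at 48 h and 1 a lower one, with a median of 0.65. The median was 0.21 when the probe sets of each gene were averaged, and without _x_at and _s_at probe sets it was 0.32, with 4 of 9 genes higher. Against vehicle, 4 of the 11 were higher and 2 lower at 48 h, and 1 was higher and 5 were lower at 24 h. MAFF, a small MAF protein that pairs with NRF2, had levels of 7.75, 7.87 and 7.93 at 40 nM for 48 h, against 6.98, 6.78 and 6.87 in vehicle for 48 h. At 24 h it had 5.33, 5.10 and 5.57 at 40 nM, against 7.39, 7.07 and 7.05 in vehicle. It stood above vehicle at 48 h and below at 24 h, with effects of 0.98 ± 0.12 and -1.84 ± 0.12, a difference of 2.82 ± 0.17 (limma adjusted p = 2.36e-07). FOSL1, which encodes the AP-1 subunit FRA1, had -0.12 ± 0.09 at 48 h (adjusted p = 0.444) and -1.93 ± 0.09 at 24 h in limma, a difference of 1.81 ± 0.13. JUN had 0.07 ± 0.05 at 48 h and -1.02 ± 0.05 at 24 h, and its difference of 1.08 ± 0.08 no longer passed with _x_at and _s_at probe sets left out (0.32, limma adjusted p = 0.177).

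Of 21 ERK outputs and feedback genes, 12 had a higher effect at 48 h, 1 a lower one and 8 did not pass. Their median effect was -0.08 at 48 h, with 6 higher and 6 lower than vehicle, and -0.61 at 24 h, with 3 higher and 15 lower. The lowest effect of the list was -2.65 at 48 h and -2.11 at 24 h, and the lowest difference of effects was -0.55. The ETS factor ETV5, induced by fibroblast growth factor and ERK signals, had -0.64 ± 0.07 at 48 h and -1.96 ± 0.07 at 24 h, a difference of 1.32 ± 0.10. Its 4 other probe sets ranged from -0.18 to 1.05. The immediate early genes IER2 and IER3 differed by 1.13 ± 0.07 and 1.02 ± 0.08, and IER3 changed direction, with 0.51 ± 0.06 at 48 h and -0.50 ± 0.06 at 24 h. The receptor EPHA2, also on this list, had 0.33 ± 0.07 at 48 h and -0.78 ± 0.07 at 24 h (difference 1.11 ± 0.09, limma adjusted p = 2.56e-06).

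Genes of kinases and of other proteins that depend on HSP90 did not share a direction. Of 20 receptor tyrosine kinases, 5 had a higher effect at 48 h and 5 a lower one, and of 17 cytosolic client genes 3 and 4 (5 higher without replicate 3 of vehicle at 24 h). The cytosolic list also holds NR3C1, HIF1A and IKBKG, which do not encode kinases, and NR3C1 was among the 4 with a lower effect. Without _x_at and _s_at probe sets, 3 of 16 receptors had a higher effect and 2 a lower one. The receptor AXL had levels of 9.53, 9.58 and 9.58 at 40 nM for 48 h, against 11.03, 11.01 and 10.97 in vehicle for 48 h, and 10.82, 10.82 and 10.90 at 40 nM for 24 h, against 11.25, 11.26 and 11.24 in vehicle for 24 h. It was below vehicle at both times and further below at 48 h, with effects of -1.44 ± 0.05 and -0.40 ± 0.05, a difference of -1.04 ± 0.07 (limma adjusted p = 4.82e-07). FGFR3 was above vehicle at both times, by 1.18 ± 0.17 at 48 h and 2.35 ± 0.17 at 24 h, a difference of -1.18 ± 0.24. These are transcript levels and say nothing of the client proteins.

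Heat shock genes had smaller rises at 48 h. Of 24 measured, 15 had a lower effect at 48 h than at 24 h (8.11% of all genes did), 0 a higher one and 9 did not pass, with a median difference of -0.32. This count depended on the probe sets: without those ending in _x_at or _s_at, 4 of the 16 genes left had a lower effect at 48 h and 1 a higher one, with a median of -0.15. Over all 24 the median effect was 0.19 at 48 h, with 10 higher and 1 lower than vehicle, and 0.53 at 24 h, with 20 higher and 2 lower. HSPB1, which encodes the small heat shock protein HSP27, had levels of 12.45, 12.57 and 12.55 at 40 nM for 48 h, against 12.46, 12.43 and 12.40 in vehicle for 48 h. The 24 h levels were 12.08, 12.15 and 12.23 at 40 nM, against 10.88, 10.83 and 10.77 in vehicle. The groups overlapped at 48 h and were apart at 24 h, where the vehicle arrays were the lowest of the 12, and the effects were 0.09 ± 0.06 and 1.33 ± 0.06, a difference of -1.24 ± 0.09 (limma adjusted p = 8.34e-07). HSPA2, of the HSP70 family, had 0.33 ± 0.08 at 48 h and 1.35 ± 0.08 at 24 h, a difference of -1.02 ± 0.11. The small chaperone HSPB8 had 1.25 ± 0.07 at 48 h and 1.998 ± 0.07 at 24 h, but its difference of -0.75 ± 0.11 was -0.09 on its second probe set. The co-chaperones DNAJB6 and DNAJB4 differed by -0.70 ± 0.13 and -0.65 ± 0.11.

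Of the genes for HSP90 itself, HSP90AB1, the constitutive cytosolic form, had levels of 12.76, 12.75 and 12.71 at 40 nM for 48 h, against 12.62, 12.66 and 12.67 in vehicle for 48 h, and 13.44, 13.45 and 13.46 at 40 nM for 24 h, against 12.95, 12.91 and 12.91 in vehicle for 24 h. The effect was 0.09 ± 0.05 at 48 h and 0.53 ± 0.05 at 24 h, a difference of -0.44 ± 0.06 (limma adjusted p = 2.95e-04). The stress-inducible HSP90AA1 had 0.08 ± 0.05 at 48 h and 0.30 ± 0.05 at 24 h, a difference of -0.23 ± 0.07 (limma adjusted p = 0.0304). That call was lost in 9 of the 12 fits that left out 1 array, in the 12-array fit and with either replicate block, and quantile normalization over 15 arrays gave -0.14 (limma adjusted p = 0.0934). HSP90B1 of the endoplasmic reticulum (-0.33 ± 0.13), the mitochondrial TRAP1 (0.07 ± 0.09), the factor HSF1 (-0.03 ± 0.09) and the co-chaperone DNAJB1 (-0.03 ± 0.08) did not pass. HSF1 was slightly below vehicle at both times, by -0.27 at 48 h and -0.24 at 24 h.

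NRF2 targets, which serve redox defence and detoxification, had smaller rises at 48 h as well. Of 28 measured, 17 had a lower effect at 48 h, 1 a higher one (0 in 4 of the 12 fits that left out 1 array) and 10 did not pass, with a median difference of -0.40. The median effect was 0.16 at 48 h, with 13 higher and 1 lower than vehicle, and 0.54 at 24 h, with 22 higher and 1 lower. ABCC2, an efflux pump for conjugates, had levels of 9.13, 9.21 and 9.11 at 40 nM for 48 h, against 9.04, 8.89 and 8.94 in vehicle for 48 h. At 24 h it had 10.11, 10.09 and 10.27 at 40 nM, against 8.84, 8.74 and 8.72 in vehicle. The groups were close at 48 h, and at 24 h the treated arrays were the highest of the 12, a difference of -1.19 ± 0.10 (limma adjusted p = 2.70e-06). OSGIN1, an oxidative stress gene, had 0.30 ± 0.07 at 48 h and 1.03 ± 0.07 at 24 h.

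The aldo-keto reductases were near the top of the scale, whose highest value on any array was 14.43. AKR1C1 had 13.93, 13.997 and 13.92 at 40 nM for 48 h, against 13.75, 13.77 and 13.78 in vehicle for 48 h, and 13.67, 13.73 and 13.54 at 40 nM for 24 h, against 12.73, 12.83 and 12.78 in vehicle for 24 h. Its effect was 0.18 ± 0.06 at 48 h and 0.87 ± 0.06 at 24 h, a difference of -0.69 ± 0.08 (limma adjusted p = 5.09e-05), and the part of the scale's upper end in this difference was not tested. AKR1C2, a near-identical neighbour, differed by -0.95 ± 0.09, but by 0.34 with _x_at and _s_at probe sets left out (limma adjusted p = 0.226). AKR1B10 differed by -0.61 ± 0.08. GPX2, a glutathione peroxidase of epithelia, rose strongly at both times, by 2.60 ± 0.07 at 48 h and 3.48 ± 0.07 at 24 h, and its difference of -0.88 ± 0.10 was 0.79 on its second probe set. HMOX1, the inducible heme oxygenase, and NQO1, a quinone reductase, are given because they are the best known targets and were chosen after their values were seen. HMOX1 had 1.23 ± 0.06 at 48 h and 1.67 ± 0.06 at 24 h, a difference of -0.44 ± 0.08 (limma adjusted p = 0.00162), and the difference for NQO1 was -0.20 ± 0.07 (adjusted p = 0.0716).

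Promoter stretches of GPX2 and PGD, a pentose phosphate enzyme whose difference was -0.54 ± 0.08, are shown because NRF2 targets share the antioxidant response element. Capitals mark TGACNNNGC on either strand. Both are 100 bases from RefSeq on GRCh38.p14, GPX2 at chr14:64942813-64942912 on the minus strand and PGD at chr1:10398818-10398917 on the plus strand.
GPX2: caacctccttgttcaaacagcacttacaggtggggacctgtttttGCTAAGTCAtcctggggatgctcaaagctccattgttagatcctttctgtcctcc
PGD: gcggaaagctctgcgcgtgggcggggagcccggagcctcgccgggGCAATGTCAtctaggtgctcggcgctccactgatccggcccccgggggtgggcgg
Both matches read on the opposite strand. These letters occurred in 6 of 20 NRF2 target promoters (30%), in 7 of 31 G1/S promoters (22.6%), in 3 of 32 G2/M promoters (9.38%) and in 11% of all 27305. They occurred in 12.9% of promoters of genes with a higher effect at 48 h and in 11.4% of those with a lower one. PGD was chosen for its match, after its values were seen, and its 2 other probe sets gave -0.15 and 0.01.

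Phase II enzymes, which conjugate foreign compounds, passed at a share near that of all genes. Of 15 measured, 3 had a lower effect at 48 h and 0 a higher one, 20% called against 17.3% of all genes. Without _x_at and _s_at probe sets, 1 of 13 had a lower effect. UGT1A6, a glucuronosyltransferase, had levels of 3.35, 3.68 and 3.01 at 40 nM for 48 h, against 3.43, 3.22 and 2.995 in vehicle for 48 h, and 6.58, 6.82 and 6.99 at 40 nM for 24 h, against 3.74, 4.39 and 4.29 in vehicle for 24 h. At 48 h the groups overlapped close to the 20th percentile of gene values, 3.66, and treated arrays alone were high at 24 h (difference -2.52 ± 0.28, limma adjusted p = 3.12e-05). Genes of this locus share exons, so its probe set may read several of them. Of 16 cytochrome P450 and aryl hydrocarbon receptor genes, 7 had a lower effect at 48 h and 1 a higher one, which did not pass in 10 of the 12 fits that left out 1 array. CYP4F3, a fatty acid hydroxylase, had 0.89 ± 0.15 at 48 h and 2.77 ± 0.15 at 24 h, a difference of -1.88 ± 0.22. CYP1B1, a target of the aryl hydrocarbon receptor, was below vehicle at 48 h (-0.60 ± 0.08) and above it at 24 h (0.49 ± 0.08), a difference of -1.09 ± 0.11 (limma adjusted p = 1.03e-05).

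The largest negative difference of all genes was that of HPD, an enzyme of tyrosine breakdown. Its levels were 4.58, 4.51 and 4.99 at 40 nM for 48 h, against 4.10, 4.24 and 4.22 in vehicle for 48 h. At 24 h they were 8.17, 8.26 and 8.47 at 40 nM, against 4.77, 3.84 and 4.50 in vehicle. The treated arrays at 24 h alone were high. The effect was 0.51 ± 0.19 at 48 h (adjusted p = 0.0855) and 3.93 ± 0.19 at 24 h in limma, a difference of -3.43 ± 0.27 (adjusted p = 2.04e-06). HGD, which acts after HPD in the same pathway, ran the other way, with 2.42 ± 0.10 at 48 h and 0.76 ± 0.10 at 24 h, a difference of 1.66 ± 0.14 (limma adjusted p = 3.49e-06).

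GREM1, a secreted antagonist of bone morphogenetic proteins, had levels of 3.93, 3.78 and 3.72 at 40 nM for 48 h, against 6.57, 6.70 and 6.33 in vehicle for 48 h. At 24 h they were 2.87, 2.59 and 2.56 at 40 nM, against 2.68, 2.46 and 2.66 in vehicle. Vehicle arrays at 48 h stood alone as high, and all arrays at 24 h lay under the 20th percentile of gene values. The effect was -2.72 ± 0.13 at 48 h and 0.07 ± 0.13 at 24 h, a difference of -2.79 ± 0.18 (limma adjusted p = 3.89e-07). BMP4, a ligand that GREM1 binds, had 0.47 ± 0.08 at 48 h and 1.5 ± 0.08 at 24 h, a difference of -1.03 ± 0.11. Of the 19 measured BMP and TGF-beta genes, 2 had a higher effect at 48 h and 5 a lower one. The 2 became 1 without any 1 of the 6 arrays of 40 nM or vehicle at 48 h, replicate 2 of 40 nM at 24 h, or replicate 1 or 2 of vehicle at 24 h. Of the 15 such genes left without _x_at and _s_at probe sets, 2 had a higher effect and 2 a lower one.

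AGR2, a disulfide isomerase of mucus-secreting epithelia, had levels of 11.10, 11.16 and 11.12 at 40 nM for 48 h, against 9.98, 9.93 and 9.96 in vehicle for 48 h, and 11.01, 10.96 and 11.02 at 40 nM for 24 h, against 7.81, 7.72 and 7.60 in vehicle for 24 h. Treated arrays were above vehicle at both times, by 1.17 ± 0.06 and 3.29 ± 0.06, a difference of -2.11 ± 0.08 (limma adjusted p = 4.89e-09). The mean was 11.13 ± 0.03 at 40 nM for 48 h and 9.96 ± 0.03 in its vehicle, and 10.997 ± 0.03 at 40 nM for 24 h and 7.71 ± 0.11 in its vehicle (SD, n = 3). SCARA5, a ferritin receptor, had 0.54 ± 0.12 at 48 h and 2.94 ± 0.12 at 24 h, a difference of -2.40 ± 0.17. The iron exporter SLC40A1 (ferroportin) differed by -1.66 ± 0.14, and a second probe set gave -0.25. The RNA-binding NANOS1 (-2.07 ± 0.22), the chloride channel protein CLIC3 (-1.99 ± 0.17) and the sialyltransferase ST8SIA4 (-1.89 ± 0.28) complete the 12 largest negative differences. Names that only give a locus were left out of this ranking. Other probe sets of NANOS1 and ST8SIA4 gave differences as small as -0.23 and 0.11.

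Genes of amino acid supply were lower than vehicle at both times and less so at 48 h. Of 25 ATF4 targets, 13 had a higher effect at 48 h, 2 a lower one and 10 did not pass. Their median effect was -0.40 at 48 h, with 1 higher and 21 lower than vehicle, and -0.72 at 24 h, with 0 higher and 20 lower. CBS, which makes cystathionine, had -0.77 ± 0.08 at 48 h and -1.67 ± 0.08 at 24 h, and PHGDH, the entry enzyme of serine synthesis, -0.67 ± 0.06 and -1.42 ± 0.06. Asparagine synthetase ASNS had a difference of 1.20 ± 0.08 on its brightest probe set and -0.23 on the other, so its direction depended on the probe set. CTH, which splits the cystathionine that CBS makes, had levels of 5.52, 5.75 and 5.84 at 40 nM for 48 h, against 5.91, 5.74 and 5.78 in vehicle for 48 h. The 24 h levels were 8.78, 8.82 and 8.87 at 40 nM, against 6.81, 6.36 and 6.23 in vehicle. Treated arrays at 24 h alone were high, and the difference was -2.47 ± 0.18 (limma adjusted p = 9.43e-07).

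G0S2, an inhibitor of the triglyceride lipase ATGL, had levels of 6.94, 7.11 and 7.03 at 40 nM for 48 h, against 6.54, 6.41 and 6.42 in vehicle for 48 h, and 5.82, 5.96 and 6.05 at 40 nM for 24 h, against 8.35, 7.92 and 8.04 in vehicle for 24 h. It was above vehicle at 48 h and below at 24 h, a difference of 2.73 ± 0.14 (limma adjusted p = 6.60e-08). INSIG1, which holds back sterol synthesis, had 0.09 ± 0.08 at 48 h and -1.22 ± 0.08 at 24 h, and 5 of 18 sterol and fatty acid genes had a higher effect at 48 h with 0 lower. The 5 became 3 without replicate 1 of 40 nM at 24 h, replicate 1 of vehicle at 24 h or replicate 2 of vehicle at 48 h. Of the 14 such genes left without _x_at and _s_at probe sets, 2 had a higher effect and 0 a lower one. NT5E, the ecto-nucleotidase CD73, was below vehicle at both times, by -0.76 ± 0.11 at 48 h and -2.54 ± 0.11 at 24 h, a difference of 1.77 ± 0.16.

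Epithelial junction genes moved both ways. Of 22 junction and keratin genes, 4 had a higher effect at 48 h and 6 a lower one, and 3 and 1 of 15 without _x_at and _s_at probe sets. CDH1, which encodes E-cadherin, had levels of 8.74, 8.72 and 8.72 at 40 nM for 48 h, against 6.99, 6.95 and 6.92 in vehicle for 48 h, and 10.09, 10.20 and 10.19 at 40 nM for 24 h, against 7.41, 7.36 and 7.31 in vehicle for 24 h. Treated arrays were higher at both times, by 1.78 ± 0.06 and 2.80 ± 0.06, a difference of -1.02 ± 0.08 (limma adjusted p = 1.50e-06). The plakoglobin gene JUP had 1.32 ± 0.07 at 48 h and 2.34 ± 0.07 at 24 h. Claudin CLDN1 was above vehicle at 48 h (0.55 ± 0.07) and below it at 24 h (-0.87 ± 0.07), a difference of 1.42 ± 0.10 (limma adjusted p = 7.84e-07). The laminin chain LAMB3 had 1.32 ± 0.11 at 48 h and -0.21 ± 0.11 at 24 h.

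**Figure D4:**
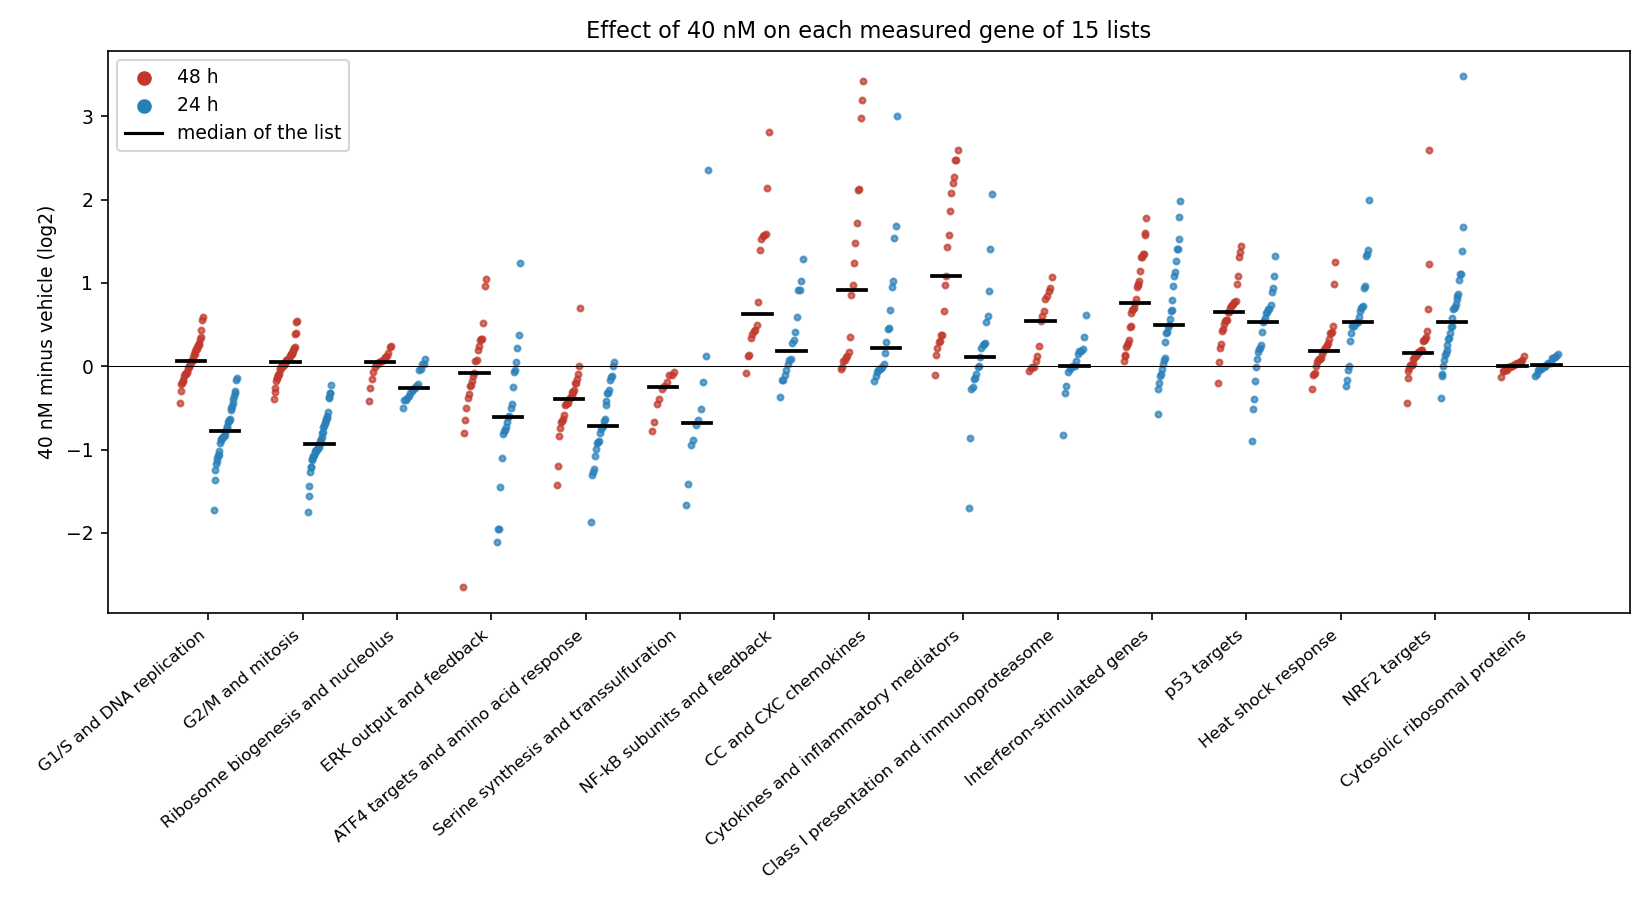
Points are the log2 differences between 40 nM and vehicle at 48 h (red, left) and 24 h (blue, right) of each measured gene of 15 lists, and black bars are medians. The 2 cell cycle lists are centred near 0 at 48 h and on -0.78 and -0.93 at 24 h, whereas the medians of the cytokines are 1.08 and 0.12 and those of the heat shock genes 0.19 and 0.53.

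Further lists ranged from no calls to calls in 8 of 16 genes. Of 17 cytosolic ribosomal protein genes, 0 passed in either direction in limma's test of the difference of effects, with a median of -0.0067 and 1 at an unadjusted p under 0.05. Of 26 constitutive proteasome subunits, 2 had a lower effect at 48 h (7.69% called), and of 23 genes of oxidative phosphorylation 5 did (21.7%). Of all genes 17.3% were called, and 0 genes of either list had a higher effect. The lowest proteasome difference, -0.28, lay within the range of the poly-A spikes, -0.34 to 0.06. Of the 21 oxidative phosphorylation genes left without _x_at and _s_at probe sets, 3 had a lower effect and 1 a higher one. The 2 proteasome genes became 1 without any 1 of the 6 arrays of 40 nM or vehicle at 48 h, replicate 1 of 40 nM at 24 h or replicate 2 of vehicle at 24 h. Of 16 ribosome biogenesis genes, 8 had a higher effect at 48 h and 0 a lower one, with a median effect of 0.06 at 48 h and -0.27 at 24 h. Among markers of other cells, 0 of 11 endothelial genes passed. Of 12 fibroblast genes, 2 had a lower effect (16.7% called). These 2 became 1 without replicate 3 of vehicle at 48 h, replicate 1 of 40 nM at 24 h or replicate 2 of vehicle at 24 h. Of 11 alveolar type 2 genes, 1, ETV5, had a higher effect (9.09% called). Wherever a list above is given with 0 genes in 1 direction, limma's unadjusted p under 0.05 found 0 or 1 such gene, except among endothelial markers, where it found 2 with a higher effect.

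A difference of effects can arise in the treated arrays, in the vehicle arrays or in both. To describe this, the 15 arrays were brought to 1 distribution by quantiles and each group at 48 h was set against the same treatment at 24 h. Any step between the runs beyond the distribution remains in these values. The values given are medians over the genes of a list of each gene's level at 48 h minus its level at 24 h. For G2/M genes they were 0.79 in the 40 nM arrays and -0.15 in the vehicle arrays, and for G1/S genes 0.64 and -0.11. All 40 G2/M genes and all 35 G1/S genes were higher at 48 h in the 40 nM arrays, and 30 and 22 of them were lower in the vehicle arrays. For cytokines the values were 1.14 in the 40 nM arrays and 0.11 in the vehicle arrays, for heat shock genes -0.41 and -0.18, and for NRF2 targets -0.09 and 0.20. Over all genes they were -0.02 and -0.02. For cytochrome P450 and aryl hydrocarbon receptor genes they were 0.28 and 0.87, so that this list differed by more in the vehicle arrays.

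**Figure D5:**
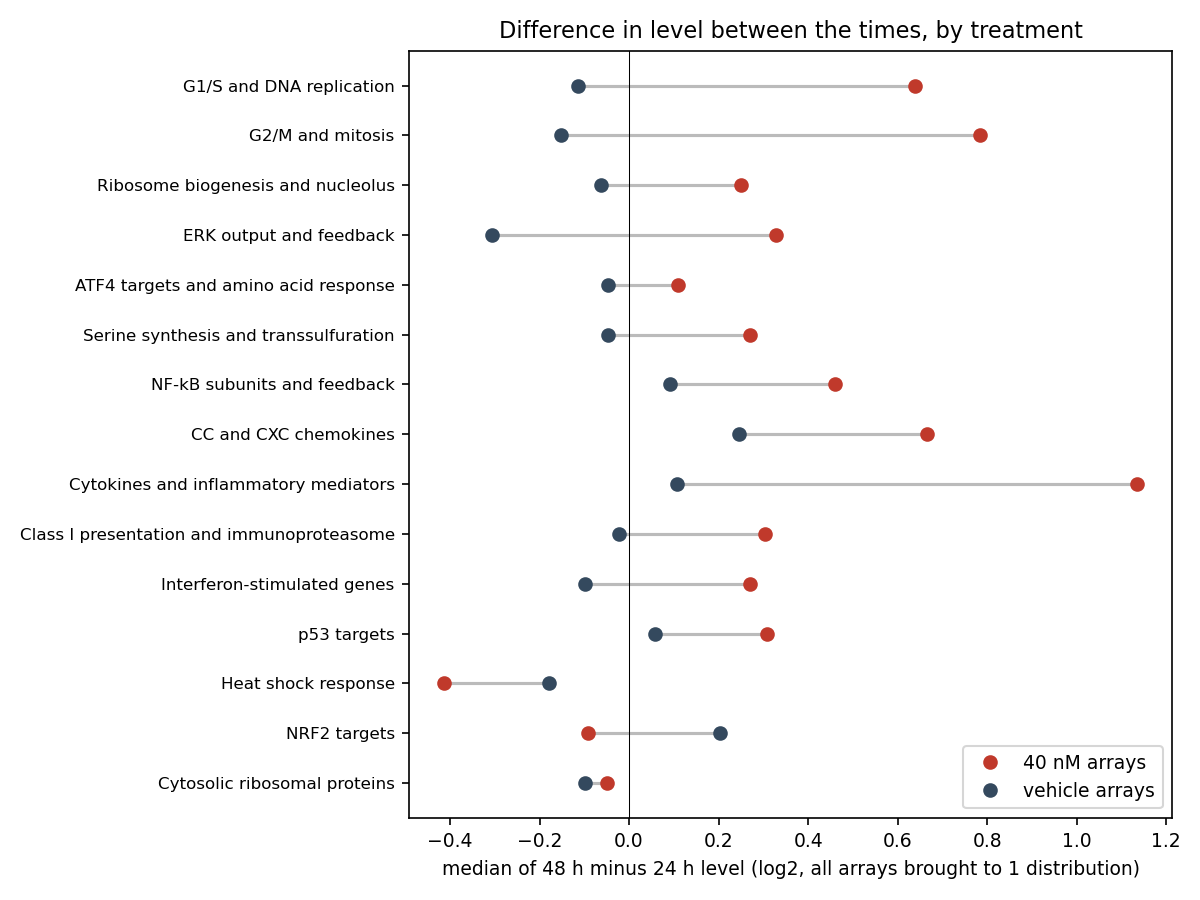
Points show, for 15 lists, the median over measured genes of each gene's log2 level at 48 h minus its level at 24 h. Red points are the 40 nM arrays and dark points the vehicle arrays, after all arrays were brought to 1 distribution. In the 2 cell cycle lists and the cytokines the red points lie at 0.64 to 1.14 and the dark ones between -0.15 and 0.11, while NRF2 targets have the red point at -0.09 and the dark one at 0.20.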

How the data were processed

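RNA of A549 cells was hybridised to Affymetrix HG-U133 Plus 2.0 arrays. The authors deposited log2 values for 54675 probe sets and 15 arrays, which the submitters' processing notes credit to RMA run in Affymetrix Expression Console. Its release was not given in the sources used. All columns were matched to samples (0 unmatched). The platform annotation gave 41091 probe sets 1 symbol, 1801 several and 11721 none, beside 62 controls, and 41037 symbols were updated through the gene ID.

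All 15 arrays entered 1 model of group means (limma 3.58.1, R 4.3.3; lmFit and eBayes, 10 residual degrees of freedom), without a replicate block. P-values were two-sided and adjusted by Benjamini-Hochberg over 19775 genes at 0.05. The median standard error was 0.097 for an effect at 1 time and 0.14 for the difference of effects; arrays have no read depth, so their number limits the precision. ± marks SE for log2 changes and SD for means. The fit was tested on simulated data.

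Same-numbered arrays were not treated as paired. Their deviations from group means correlated by -0.28, -0.25 and 0.06 at 48 h and -0.26, 0.14 and -0.41 at 24 h. With 3 arrays per group, these values cannot settle whether the arrays belong in pairs. The 48 gene lists and the comparison were chosen with earlier results of these data known. Named genes are the 12 largest positive and negative differences and the 6 largest of each pattern. Both leave out names that only give a locus (LOC, LINC, orf, -AS, -DT, KIAA or FAM). Up to 5 passing members of each list and 7 HSP90 and heat shock genes were added. Others are said to be chosen later, except undetected leukocyte markers. Promoters (250 bases before to 50 after the start) are RefSeq's, on GRCh38.p14, and 15384 of 19775 genes matched by symbol. Alternatives were other normalizations, a floor, filters, probe set choices, blocks, a trend, array weights, 12 arrays alone, a stricter threshold and each array left out. Some members of the lists are not reported here.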

Additional observations from a re-analysis of the deposited data

Results flagged for a closer look

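The effect of 40 nM differed between 48 h and 24 h for 3420 genes by the test of the difference itself. Single arrays far from their group were not looked for, because groups of 3 are too small for that rule. For 25 named genes the effects passed at both times in opposite directions, and the difference itself passed in limma. It was positive, with 40 nM above vehicle at 48 h and below it at 24 h, in 21 of them. The named genes were picked by size and by list. Among all 306 genes of this pattern the difference was positive in 170 and negative in 136. Differences of the genes with the levels given above were 3.33 (PTX3), 2.82 (MAFF), 2.73 (G0S2), 2.37 (IL11), 2.06 (RRM2), 1.16 (GADD45A). Among genes of the cell cycle and repair, CCNE2, RAD51AP1 and the phosphatase CDKN3 differed by 1.62, 1.11 and 0.92. Among receptors and regulators of cell death, TNFRSF9 differed by 1.97, the caspase-8 inhibitor CFLAR by 0.81, the death receptor TNFRSF10A by 0.81 and PMAIP1 by 0.73. ANKRD1, a target of the coactivator YAP, had effects of 1.14 at 48 h and -0.37 at 24 h, a difference of 1.504. CLDN1 differed by 1.42, PSMB9 by 1.31, EPHA2 by 1.11, IER3 by 1.02 and the urokinase receptor PLAUR by 0.99. Without _x_at and _s_at probe sets PLAUR had 0.11 (limma adjusted p = 0.659). Smaller differences were those of the lipid droplet gene CIDEC (0.70) and the nucleolar NOLC1 (0.44). The difference was negative, with 40 nM below vehicle at 48 h and above it at 24 h, in the other 4 of the 25 named genes. CYP1B1 differed by -1.09, the stress and hypoxia gene NDRG1 by -1.09, the autophagy kinase ULK1 by -0.76 and the complex I subunit NDUFA9 by -0.35. NDRG1 had effects of -0.60 at 48 h and 0.49 at 24 h.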

How the results depend on the processing

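Of the 218 named genes, 214 passed in the main setting, and 11 of these changed sign under an alternative (as did 3 that had not passed), 10 of the 11 with probe sets ending in _x_at or _s_at left out, when another probe set is read. Under that setting the differences of effects were 0.34 for AKR1C2, -0.23 for ASNS, -0.0501 for CDKN2D, -0.12 for CFB, -0.0055 for FANCM, -0.24 for POLR1B, 0.17 for SULT1A1, -0.28 for TNIP1, -0.40 for TPM1 (limma adjusted p = 0.0166) and 0.0414 for WIPI2. SRC had 0.0157 when all probe sets of each gene were averaged. Array weights, whose estimation stopped before convergence, gave 5851 calls, 3095 higher and 2756 lower, with 5831 at 48 h and 9125 at 24 h, and the cause was not tested. At an adjusted p below 0.01 there were 2111 calls, 1165 higher and 946 lower, with 2814 at 48 h and 4707 at 24 h. Leaving out 1 array at a time gave 2820 to 3527 calls. The share of higher calls, 53.1%, ranged from 45.6% without vehicle replicate 1 at 24 h to 59.2% without vehicle replicate 3 at 24 h. Other settings gave 2296 calls, 1027 of them lower (17098 genes, no _x_at or _s_at) to 4328 (quantile normalization over 15 arrays), and 3152 with the 12 arrays alone. Whether the replicate numbers pair the arrays was not settled. The replicate block gave 3052 calls, and a block within each time 2639. Levels at either end of the scale, near the 20th percentile of 3.66 or the highest value of 14.43, limit what can be measured for single genes.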

Other observations

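Secreted and lineage genes of the gut and airway had larger rises at 48 h in part. Of 22 such genes, 5 had a higher effect at 48 h and 3 a lower one. The mucin MUC5AC had 1.09 ± 0.11 at 48 h and 0.15 ± 0.11 at 24 h, and the trefoil peptide TFF1 0.96 ± 0.10 and -0.04 ± 0.10 (differences 0.94 ± 0.16 and 1.0005 ± 0.14, limma adjusted p = 9.15e-04 and 1.81e-04). Other probe sets of MUC5AC gave 0.17 to 0.87, and without _x_at and _s_at probe sets its difference was 0.25 (limma adjusted p = 0.758). TM4SF4, a tetraspanin-like membrane protein, was above vehicle at both times, by 2.56 ± 0.09 at 48 h and 3.64 ± 0.09 at 24 h. The acute-phase inhibitor SERPINA3 had 1.27 ± 0.08 at 48 h and -0.15 ± 0.08 at 24 h, while complement factor I, CFI, had 0.20 ± 0.13 and 1.62 ± 0.13.

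Targets of the coactivator YAP and Kruppel-like factors moved both ways. Of 13 YAP targets, 6 had a higher effect at 48 h and 4 a lower one. The fork head factor FOXD1 was below vehicle at both times, by -1.14 ± 0.06 at 48 h and -2.32 ± 0.06 at 24 h, a difference of 1.18 ± 0.08 (limma adjusted p = 6.29e-07). Of 10 Kruppel-like factors, 2 had a higher effect at 48 h and 4 a lower one, and 1 and 1 of 7 without _x_at and _s_at probe sets. KLF4 had -1.38 ± 0.09 at 48 h and -0.47 ± 0.09 at 24 h, and KLF6 -0.55 ± 0.11 and -1.56 ± 0.11. Among 23 autophagy and lysosome genes, 7 had a lower effect at 48 h and 1 a higher one (0 in 8 of the 12 fits that left out 1 array). The 7 became 4 when replicate 3 of vehicle at 48 h, replicate 1 or 2 of 40 nM at 48 h or replicate 3 of vehicle at 24 h was left out. Of the 16 autophagy and lysosome genes left without _x_at and _s_at probe sets, 3 had a lower effect and 0 a higher one. GABARAPL1, which forms autophagosome membranes, had 0.27 ± 0.15 at 48 h and 1.33 ± 0.15 at 24 h.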
